A study of Mus musculus with 2 samples.

Results

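The solute carriers that move inorganic ions across cell membranes were compared between uterine epithelial cells of 2 genotypes. They are the genes of 14 Slc families: 4, 8, 9, 11, 12, 13, 20, 24, 26, 30, 34, 39, 40 and 41. They were chosen by gene symbol alone, as every gene of these families that the array annotation names with a probe set of 1 symbol. This gave 81 genes with 153 probe sets, out of 18193 genes with 34945 probe sets on the array. The study hybridised 1 Affymetrix array for control mice, whose Msx1 and Msx2 were floxed, and 1 array for Msx1Msx2-null mice, in which PRcre had removed both genes. PRcre is a Cre recombinase under the control of the progesterone receptor gene, so it acts in any uterine cell that expresses this receptor, stroma included. Both groups were C57BL/6 mice on day 4 of pregnancy, after mating with fertile males, and the age of the mice is not given in the sources used here. The labels describe epithelium freed with 1% trypsin from 5 mice per genotype, but their extraction text speaks of stromal cells from 4 per genotype, and they do not say whether RNA was pooled.

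Epithelial cells set the volume and composition of the fluid in the uterine lumen by pairing pumps and channels with carriers such as these. Families 4 and 26 move bicarbonate and other anions, and family 9 exchanges sodium for protons. Family 12 couples sodium or potassium to chloride, and families 8 and 24 exchange sodium for calcium. Families 13, 20 and 34 carry sulfate, carboxylates or phosphate, families 30 and 39 carry zinc out of and into the cytosol, families 11 and 40 carry iron into and out of it, and family 41 carries magnesium.

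The labels were first checked against the genes they name. Msx1 was 82.1-fold lower and Msx2 2.69-fold lower on the null array, although the labels do not say whether these probe sets lie in the deleted part. Of the epithelial markers, all 9 with a probe set were compared, none differed by 2-fold, and their summed signal was 36942 in the control and 40548 in the null. Markers of other cells were present too. Of 10 stromal markers none reached 2-fold, with a median log2 difference of 0.50 and summed signals of 9315 and 11608. Of 8 smooth muscle markers 7 were compared and 5 passed 2-fold upward in the null (summed signals 454 and 1091), of 8 macrophage markers 1 did (5323 and 5842), of 6 endothelial markers 1 did (341 and 496), and of 4 lymphocyte and plasma cell markers compared 1 did (236 and 1171). The lymphocyte and plasma cell sum rose mainly through Jchain, at 71.5 and 978, while Ptprc read 111 and 125 and Nkg7 33.7 and 43.7. Most of the macrophage sum was Cd14, at 4260 and 4086, while the median log2 difference of the macrophage markers was 0.68. Of 4 mesothelial markers and of 1 red cell marker compared none reached 2-fold. Among all genes compared, 7.73% were at least 2-fold higher and 4.75% lower. Of 6 gland markers 5 were compared, of which 3 were past 2-fold higher, 1 was past 2-fold lower and Prss29 lay just at the threshold as a bound (log2 1.00), with summed signals of 242 and 358. Each genotype has 1 array, so none of the differences could be tested and p-values are absent throughout. In such bulk samples, fewer cells of a type and less RNA per cell cannot be told apart.

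Among these ion carriers 5 genes passed 2-fold upward in the null sample and 6 passed it downward. The higher genes were the bicarbonate carriers Slc4a4 and Slc4a8, the sodium-proton exchanger Slc9a2, the iron exporter Slc40a1 and the magnesium carrier Slc41a2. The lower genes were the chloride cotransporters Slc12a2 and Slc12a7, the citrate carrier Slc13a5, the calcium exchanger Slc24a4, the anion exchanger Slc26a6 and the zinc carrier Slc30a3. Signals are MAS5 intensities on a linear scale, and differences are null minus control on the log2 scale. A signal below 21.1, the median of all non-control signals over both arrays, was set to that floor. A gene is represented by its probe set of highest mean log2 value over both arrays, and signals are compared only within a probe set, since probes differ in how brightly they bind.

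Of the 81 genes, 40 reached the floor on both arrays, 2 on the control array only, 2 on the null array only, and 37 on neither. Thus 44 genes (54.3%) could be compared, against 11662 of all 18193 genes (64.1%). Higher by at least 2-fold were 11.4% of the 44 carriers, against 7.73% of all genes compared, and lower by at least 2-fold were 13.6%, against 4.75%. The same shares of all genes are the background for the counts by family and by list below, which rest on few genes each. After scaling to the hybridization spike-ins, 3 of 44 carriers were higher and 8 lower, against 572 and 1044 of 11658 genes compared. Among all genes past 2-fold, the higher share was then 35.4% in place of 62.0%. At 1.5-fold 6 of the 44 carriers were higher and 8 lower, against 2040 and 1405 of the 11662 genes. At 3-fold no carrier was higher and 3 were lower, Slc13a5, Slc24a4 and Slc26a6 (background 2.97% and 1.51%). The median difference of the 44 carriers was 0.05 and that of all genes 0.08, while the median size of the difference, sign aside, was 0.43 and 0.35. On the higher side the nearest genes inside and outside the 2-fold threshold were Slc4a8 at 1.20 and Slc30a7 at 0.70, and on the lower side Slc12a7 at -1.02 and Slc39a8 at -0.78. As a gauge of measurement error, the log2 differences given by a gene's several probe sets had a standard deviation of 0.31 in the 14 carriers where more than 1 lay above the floor throughout, and of 0.38 in 4645 such genes overall. This gauge holds no spread between animals.

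**Figure D1:**
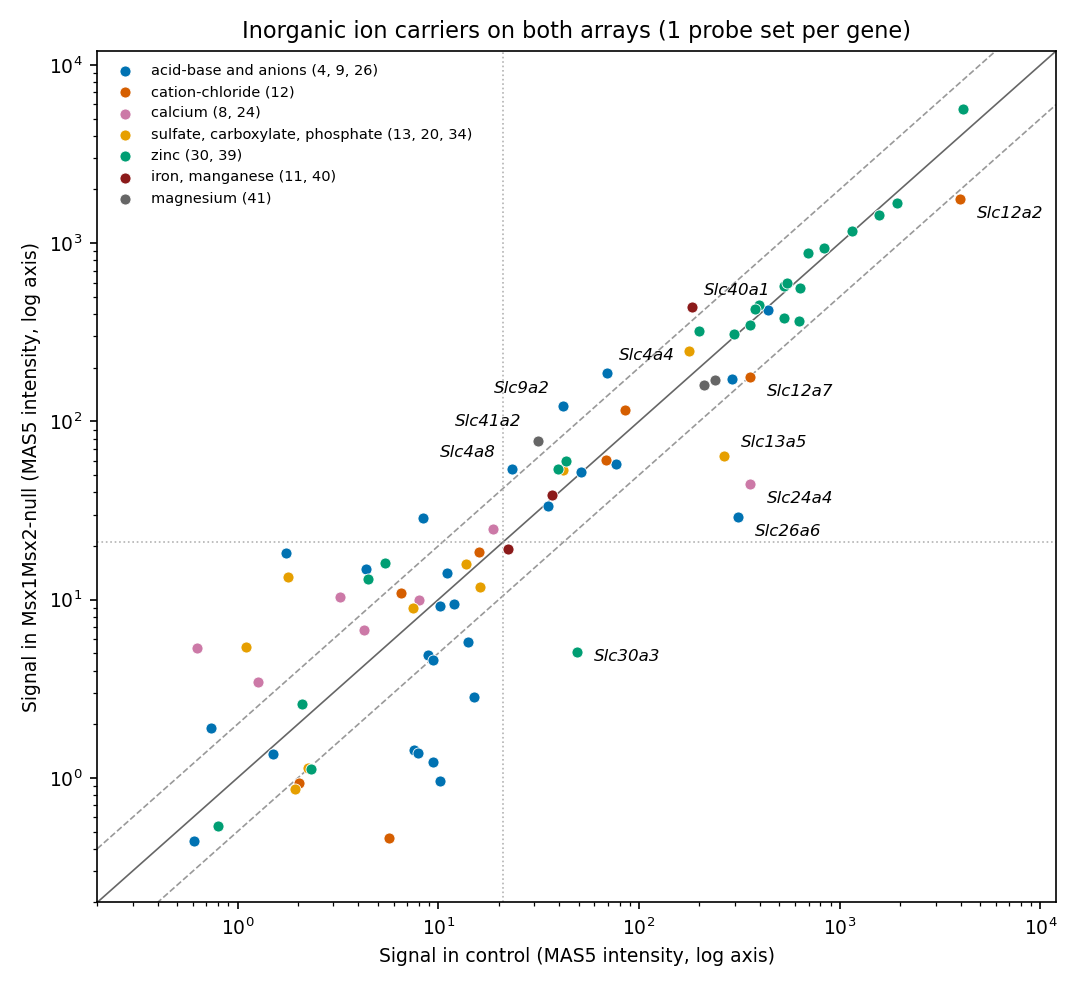
Signal of each of the 81 ion carriers on the control array (x axis) and the Msx1Msx2-null array (y axis), both as MAS5 intensity on log axes, with 1 probe set per gene coloured by the families' substrates. The solid line marks equal signals, dashed lines mark 2-fold and dotted lines the floor of 21.1. The 11 named genes lie beyond the dashed lines, genes below the floor on both arrays were not compared, and of the 11 only Slc30a3 lies below the floor on an array.

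Among the anion exchangers of family 26 a single gene was past 2-fold. Slc26a6, which exchanges chloride for bicarbonate, oxalate and other anions at the apical membrane of epithelia, gave 313 in control cells and 28.9 in null cells. Its log2 difference was -3.43, a 10.8-fold lower signal, measured by 1 probe set. The null signal is close to the floor, so the size depends on where the floor is set. With the floor at the 67th percentile, a signal of 72.7, the null signal lies below it and -2.10 is a bound. Slc26a2, the sulfate carrier that supplies sulfation of proteoglycans, was 1.68-fold lower, from 289 to 172 (log2 -0.75), with further probe sets at -0.43 and -0.11. Slc26a11, also an anion carrier, read 51.2 and 51.8. The other 7 family members lay below the floor on both arrays, among them Slc26a3 and Slc26a4, the intestinal and the thyroid anion exchangers. Of 3 genes compared in the family, 1 was at least 2-fold lower and none was higher.

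The calcium exchangers that also carry potassium, family 24, likewise held 1 gene past 2-fold. Slc24a4 gave 357 in control cells and 44.6 in null cells, 8.0-fold lower (log2 -3.00), by a single probe set. With the floor at the 67th percentile the null signal lies below it and -2.29 is a bound. Slc24a3 was below the floor in the control at 18.8 and reached 24.9 in the null, at least 1.18-fold higher. Slc24a1, known from rod photoreceptors, and the neuronal Slc24a2 lay below the floor on both arrays. So did Slc8a1, Slc8a2 and Slc8a3, the sodium-calcium exchangers of heart, brain and muscle, whose chosen probe sets read between 1.26 and 10.3.

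The promoters of Slc26a6 and Slc24a4 are shown because these genes had the lowest differences measured on both arrays. Msx proteins are homeodomain factors that bind sites with the letters TAATTG. The sequences are the 250 bases before the annotated start in RefSeq, build GRCm38.p6, 5′ to 3′ on the plus strand, with a match to TAATTG or its reverse complement in capitals. They lie at chr9:108853793-108854042 for Slc26a6 and at chr12:102128477-102128726 for Slc24a4.
Slc26a6: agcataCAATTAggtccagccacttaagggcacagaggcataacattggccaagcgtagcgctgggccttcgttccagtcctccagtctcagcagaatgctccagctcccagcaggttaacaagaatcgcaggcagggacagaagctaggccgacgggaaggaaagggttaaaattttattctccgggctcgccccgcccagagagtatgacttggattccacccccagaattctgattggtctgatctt
Slc24a4: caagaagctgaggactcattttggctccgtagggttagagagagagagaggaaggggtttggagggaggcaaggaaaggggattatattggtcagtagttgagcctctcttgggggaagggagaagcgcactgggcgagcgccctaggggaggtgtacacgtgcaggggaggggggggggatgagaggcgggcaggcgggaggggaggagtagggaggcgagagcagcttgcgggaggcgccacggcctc
The Slc26a6 window holds 1 match, from 244 to 239 bases before the start, and the Slc24a4 window holds none. Slc13a5, also past 3-fold lower, had no match in its windows. Of the 5 genes at least 2-fold lower with a promoter in the table, 1 had a match. Such letters are common: at least 1 match stood in a promoter of 8.30% of the 27025 genes in the table and of 5 of the 64 carriers that matched it (7.81%). A match is a stretch of letters and not evidence of binding.

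Bicarbonate carriers of family 4 were higher where they differed. Slc4a4 (NBCe1), a sodium-bicarbonate cotransporter of the basolateral membrane in many epithelia, gave 69.1 in control cells and 187 in null cells, 2.70-fold higher (log2 1.43). Its further compared probe sets gave 1.20 and 0.87, and another, below the floor in the control, was at least 3.72-fold higher, so all 4 pointed the same way. Slc4a8, a sodium-driven chloride-bicarbonate exchanger, went from 23.4, near the floor, to 53.9, 2.30-fold higher (log2 1.20). Its 4 further probe sets lay below the floor on both arrays, so the difference rests on 1 probe set. The anion exchanger Slc4a2 (AE2) read 437 and 419 (log2 -0.06) and Slc4a11 read 35.4 and 33.6 (-0.08), both with signs that turned under other scalings. The remaining 5 genes were below the floor on both arrays, including Slc4a1, the band 3 protein of red cells. Of the 4 genes compared, 2 passed 2-fold upward and none downward, around a median of 0.57.

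Of the sodium-proton exchangers of family 9, the epithelial Slc9a2 (NHE2) was past 2-fold. It gave 41.7 in control cells and 122 in null cells, 2.92-fold higher (log2 1.54), by 1 probe set. With the floor at the 67th percentile, a signal of 72.7, its control signal lies below the floor. The log2 difference was then at least 0.74, a bound that does not settle whether it passed 2-fold. The Golgi exchanger Slc9a8 read 77.0 and 57.9 (log2 -0.41). The endosomal Slc9a9 was at 8.36 in the control, below the floor, and at 28.8 in the null, at least 1.36-fold higher. As a bound it cannot be ranked against Slc9a2. With the floor at the 33rd percentile, a signal of 8.62, its log2 difference was at least 1.74, past 2-fold and still a bound. Slc9a3, the apical exchanger of kidney and gut, was below the floor on both arrays at 9.38 and 4.57, as were Slc9a4, Slc9a5 and Slc9a7.

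The cation-chloride cotransporters of family 12 differed in the other direction. Slc12a2 (NKCC1), which loads epithelial cells with chloride for secretion, gave 3984 in control cells and 1771 in null cells, 2.25-fold lower (log2 -1.17). Its other probe sets agreed in size: 1089 and 445 (log2 -1.29), and 991 and 401 (log2 -1.31). Slc12a2 is thus the lower carrier with the most probe sets behind it, 3 of 3 past 2-fold. Slc12a7 (KCC4), which lets potassium and chloride leave the cell, gave 359 in control cells and 177 in null cells, 2.02-fold lower (log2 -1.02). A second probe set of Slc12a7 was at 36.1 in the control and below the floor in the null, at least 1.71-fold lower. That gene lay so near the threshold that it fell short of 2-fold under 5 of the 10 other settings. Slc12a4 (KCC1) read 68.8 and 60.4 (log2 -0.19). Slc12a9 read 85.3 and 116 (log2 0.44), but another probe set of it pointed the other way, at -0.22 as a bound. Kidney-specific Slc12a1 and Slc12a3, the neuronal Slc12a5 and Slc12a8 were below the floor on both arrays. Of 4 genes compared, 2 were at least 2-fold lower and none was higher, with a median of -0.60.

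**Figure D2:**
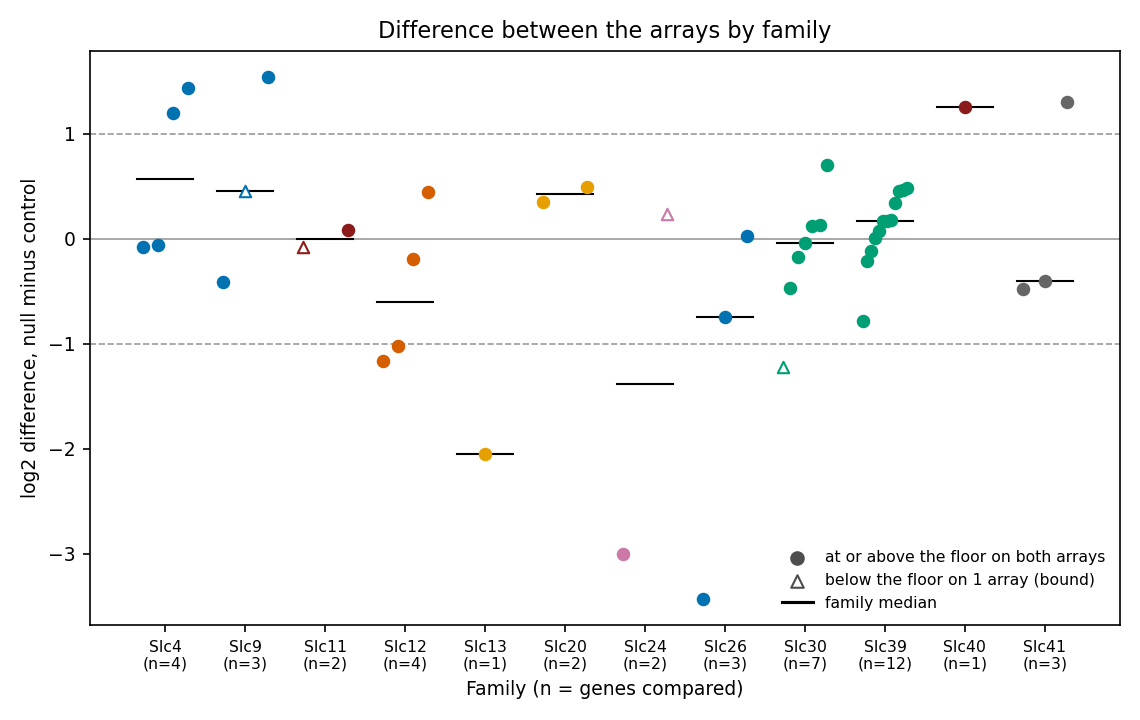
Difference between the arrays (y axis, log2, null minus control) for the 44 ion carriers compared, grouped by family (x axis), with filled circles for genes measured on both arrays, open triangles for bounds and bars for the family median. Dashed lines mark 2-fold. Family 12 has its 2 lowest genes at -1.17 and -1.02, family 4 its 2 highest at 1.20 and 1.43, and the 12 genes of family 39 lie between -0.78 and 0.48.

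Among carriers of sulfate, carboxylates and phosphate 1 gene stood apart. Slc13a5 (NaCT), which imports citrate with sodium, gave 266 in control cells and 64.1 in null cells, 4.15-fold lower (log2 -2.05). A dim second probe set, at 24.7 in the control and below the floor in the null, was at least 1.17-fold lower, and the median of the probe sets was -1.14. The other 4 genes of family 13 were below the floor on both arrays. Slc20a1 (Pit1) and Slc20a2 (Pit2), the phosphate importers found in most cells, were 1.28-fold and 1.40-fold higher, at 41.8 and 53.4 and at 178 and 249. The phosphate carriers of kidney, gut and lung, Slc34a1, Slc34a2 and Slc34a3, lay below the floor, between 1.13 and 16.1.

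Zinc carriers made up 24 of the 81 genes and showed small differences. Of 12 importers of family 39 compared, none reached 2-fold, 9 differences were above 0 and 3 below, and the median was 0.17. Slc39a4 (ZIP4), the importer of the apical membrane that the gut needs for zinc uptake, read 4123 in control cells and 5655 in null cells, 1.37-fold higher (log2 0.46). Slc39a14 (ZIP14), which also carries iron, read 1933 and 1670, and its 4 probe sets ran from -0.57 to 0.16. Slc39a8 (ZIP8), which also carries manganese, differed most: it read 629 and 367, 1.71-fold lower (log2 -0.78), with a second probe set at -0.66. Slc39a10 read 698 and 882 (log2 0.34), with a second probe set at 0.51. Slc39a13 (log2 0.48) and Slc39a3 (0.45) were dim, at 43.3 and 39.5 in the control. The plasma membrane importers Slc39a1 (1561 and 1439) and Slc39a2 (397 and 447), the zinc importer Slc39a6 (1154 and 1163) and Slc39a7 (832 and 936), which releases zinc from the endoplasmic reticulum, differed by at most 1.12-fold. So did Slc39a11, at 296 and 311, while Slc39a9, at 380 and 429, was 1.13-fold higher. Slc39a5 and Slc39a12 were below the floor on both arrays.

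The zinc exporters of family 30 were as close, with 1 exception. Slc30a3 (ZnT3), which fills synaptic vesicles with zinc in neurons, was at 49.2 in the control and at 5.05, below the floor, in the null, so at least 2.33-fold lower by its only probe set. Slc30a1 (ZnT1), the exporter of the plasma membrane, read 528 and 380 (log2 -0.47), with a second probe set at -0.65. Slc30a7, which loads zinc into the early secretory pathway, read 199 and 323 (log2 0.70), but its second probe set gave only 0.16. Slc30a4 (527 and 575), Slc30a5 (637 and 561), Slc30a6 (357 and 347) and Slc30a9 (547 and 595) differed by at most 1.14-fold. Slc30a2, Slc30a8 of the pancreatic islet and Slc30a10 were below the floor on both arrays. Across both zinc families 19 genes were compared, of which none was at least 2-fold higher and 1 was at least 2-fold lower, against 5 higher and 5 lower among the 25 genes of the other families. This contrast between families was noticed in the data and was not tested. At the shares of all genes compared, 7.73% higher and 4.75% lower, few of 19 genes would be past 2-fold either way. The direction of 12 carriers, 8 of them in the zinc families, turned under at least 1 other scaling, and none of these differed by more than 0.18 as deposited.

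Cells sense zinc through Mtf1, which binds metal response elements and thereby raises the metallothioneins and Slc30a1. Metallothionein signals were high on both arrays: Mt1 read 12541 and 15995 (log2 0.35) and Mt2 read 9504 and 10906 (0.20). Mtf1 itself read 161 and 172, and Mt3, a brain metallothionein, read 38.3 and 90.7, 2.37-fold higher (log2 1.25). Of 4 genes compared in this list 1 was at least 2-fold higher and none was lower (7.73% and 4.75% of all genes). The Slc30a1 promoter is shown as the carrier with this regulation. Its 250 bases before the start lie at chr1:191906531-191906780 in build GRCm38.p6, plus strand, and capitals mark a match to TGCACNC or TGCGCNC on either strand.
Slc30a1: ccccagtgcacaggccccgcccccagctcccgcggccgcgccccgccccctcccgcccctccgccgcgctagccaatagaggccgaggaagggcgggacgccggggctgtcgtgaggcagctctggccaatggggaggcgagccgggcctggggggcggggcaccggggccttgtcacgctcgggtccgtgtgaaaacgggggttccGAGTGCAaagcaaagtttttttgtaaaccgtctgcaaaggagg
The match lies 43 to 37 bases before the start, on the reverse strand. At least 1 such match stood in a promoter of 6 of 9 genes of family 30, of 4 of 11 genes of family 39, of 25 of the 64 carriers in the table (39.1%) and of 23.8% of all genes. The carriers' windows were also richer in G and C, with a median of 60.8% against 52.4% of all promoters, and the part of this in the number of matches was not tested.

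Of the 3 iron carriers of families 11 and 40, the exporter was past 2-fold and both importers were nearer to equal signals. Slc40a1 (ferroportin), the exporter of iron from cells, gave 183 in control cells and 438 in null cells, 2.39-fold higher (log2 1.25), and its second probe set went from 61.4 to 177, 2.88-fold higher (1.53). Slc11a2 (DMT1), which brings iron and manganese into the cytosol, read 36.7 and 38.7 (log2 0.08), with further probe sets at 0.45 and, as a bound, 0.23. Slc11a1 (NRAMP1), a carrier of phagosomes in macrophages, was at 22.3, just above the floor, in the control and at 19.3, below it, in the null. Macrophages also express Slc40a1 strongly. Their 8 markers had a median difference of 0.68 and ranged from Mrc1 at -0.23, Cd14 at -0.06 and Adgre1 at 0.03 to C1qa at 1.09, the only one past 2-fold, and their part in the Slc40a1 difference was not tested. Of 14 other iron genes compared, 1 passed 2-fold upward and none downward (7.73% and 4.75% of all genes), around a median of 0.15. That gene was the transferrin receptor Tfrc, at 192 and 420 (2.19-fold, log2 1.13). The ferritin heavy chain Fth1 read 5153 and 7269 (log2 0.50), and the mitochondrial iron importer Slc25a37 stood at 0.73. The ferric reductase Steap4 stood at -0.66 and the iron regulatory protein gene Ireb2 at -0.55.

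Magnesium carriers of family 41 went both ways. Slc41a2 gave 31.4 in control cells and 77.6 in null cells, 2.47-fold higher (log2 1.30), by 1 probe set. The null signal is only just above the 67th percentile of all signals and the control signal below it. With the floor there the difference was at least 0.09, a bound. The sodium-magnesium exchanger Slc41a1 read 210 and 160 (log2 -0.40). The mitochondrial Slc41a3 read 238 and 171 (log2 -0.48), with a second probe set at -0.45 and another, of a type prone to cross-hybridisation, at 0.67.

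**Figure D3:**
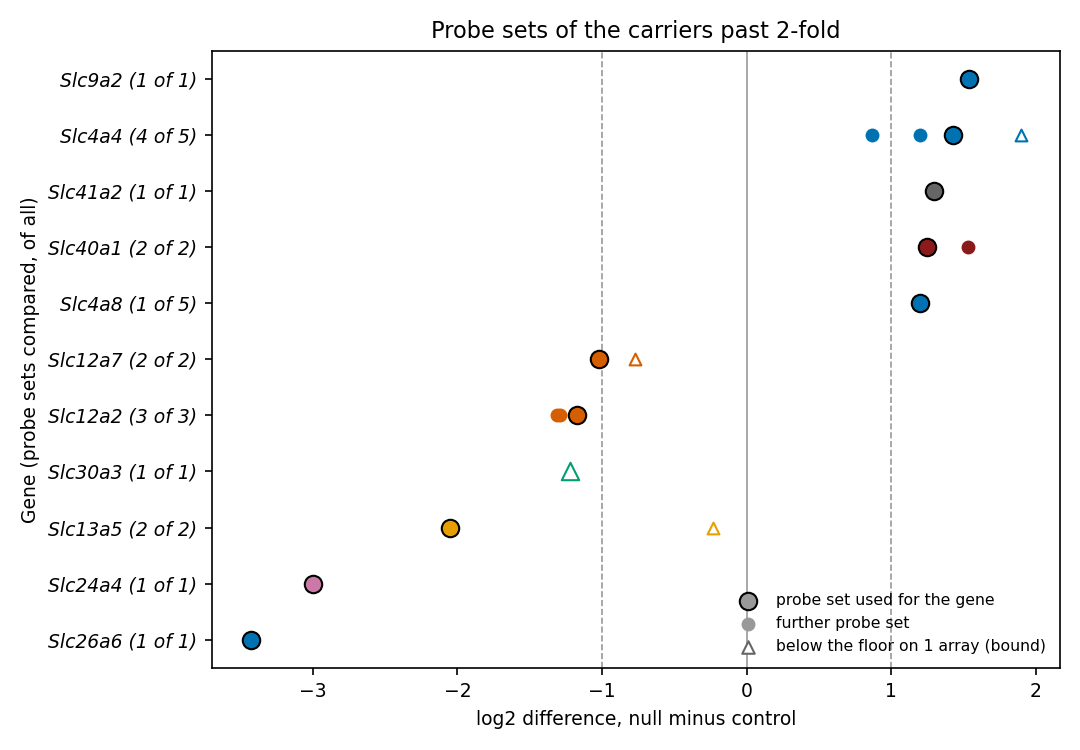
Log2 difference, null minus control (x axis), of every compared probe set of the 11 ion carriers past 2-fold (y axis, with the number of compared probe sets of all). Large outlined circles mark the probe set used for the gene, small circles further probe sets, and open triangles bounds. Slc12a2, Slc4a4 and Slc40a1 have several probe sets of like difference, whereas Slc26a6, Slc24a4, Slc9a2, Slc41a2, Slc30a3 and Slc4a8 rest on 1.

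Of the 11 carriers past 2-fold, 5 had a further compared probe set, and in all 5 each of these pointed the same way. In Slc12a2 and Slc40a1 every further probe set also passed 2-fold. In Slc4a4, Slc12a7 and Slc13a5 at least 1 did not. Over all carriers, 18 had several compared probe sets, and in 4 of them (Slc12a9, Slc39a6, Slc39a14 and Slc41a3) they pointed in opposite directions.

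Genes that regulate or work beside these carriers were examined as lists. Regulators of family 12, which are kinases, the scaffold Cab39 and the ubiquitin ligase genes Cul3 and Nedd4l, were split. Of 9 genes compared, 2 passed 2-fold upward and 1 downward (7.73% and 4.75% of all genes), around a median of -0.15. Stk39 (SPAK), the kinase that activates Slc12a2 by phosphorylation, went from 21.3, just above the floor, to 118, 5.52-fold higher (log2 2.47), with a second probe set at least 2.32-fold higher. Sgk1, which acts on sodium transport, went from 1408 to 7286, 5.17-fold higher (2.37). Wnk4, which acts upstream of Stk39, went from 812 to 325, 2.50-fold lower (-1.32), and Oxsr1, the close relative of Stk39, stood at -0.57. Slc12a2 itself was lower on the same array.

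Of 5 compared partners of the sodium-proton exchangers 1 was at least 2-fold higher and none was lower (7.73% and 4.75% of all genes). That was the scaffold Pdzk1, below the floor at 19.4 in the control and at 142 in the null, at least 6.72-fold higher. The scaffold Slc9a3r1 (NHERF1) read 1027 and 1699 (log2 0.73) with further probe sets at 0.98 and 0.60. Slc9a3r2 read 310 and 172 (-0.85), but its 6 probe sets were not all of 1 sign and the highest gave 0.30. Ezr, which ties such scaffolds to actin, stood at -0.24.

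Chloride channels and carbonic anhydrases, which work with families 4 and 26 in bicarbonate secretion, also went both ways: of 8 compared, 3 passed 2-fold upward and 1 downward, around a median of 0.46. The apical chloride and bicarbonate channel Cftr went from 140 to 338, 2.42-fold higher (log2 1.27). Car13 read 43.3 and 115 (1.40), and Clca1, a secreted modulator of chloride channels, stood at 3.19. The membrane-bound carbonic anhydrase Car12 went from 368 to 140, 2.62-fold lower (-1.39), while a dim second probe set gave a bound of only -0.13. Among sodium and calcium pumps none of 11 genes reached 2-fold and the median was 0.22. The largest differences were those of Fxyd5 (0.88), the plasma membrane calcium pump Atp2b1 (-0.64, with further probe sets at -0.63 and -0.71), Atp2a3 (0.54) and Fxyd3 (0.39). None of 5 genes of sulfate activation reached 2-fold, with Slc35b2, the Golgi carrier of activated sulfate, at 0.76, Papss1 at 0.59, Bpnt1 at -0.35 and Slc35b3 at 0.09. For comparison, the median over all genes compared was 0.08, with 7.73% of them at least 2-fold higher and 4.75% lower. Of the gland markers, Foxa2 (23.0 and 55.1), Cxcl15 (42.2 and 194) and Wfdc3 (19.4 and 52.2) were past 2-fold higher beside Slc4a4, Slc9a2 and Cftr, Prss29 (13.1 and 42.2) was higher with a bound just at that threshold, Spink1 was at least 6.69-fold lower, and Prss28 was below the floor on both arrays. Their part in these differences was not tested.

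**Figure D4:**
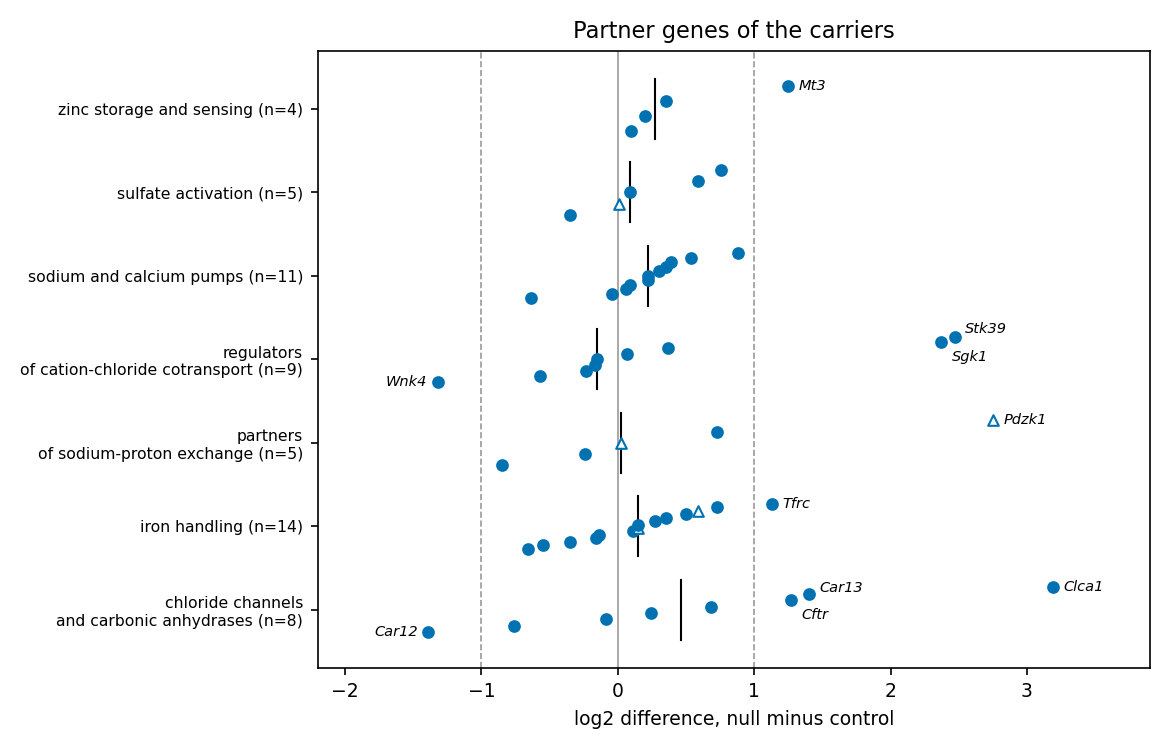
Log2 difference, null minus control (x axis), of partner genes of the ion carriers in 7 lists (y axis, n = genes compared), with circles for genes measured on both arrays, open triangles for bounds and bars for the list median. Genes past 2-fold, marked by dashed lines, are named, from Car12 at -1.39 to Clca1 at 3.19.

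The differences that held in every setting were those of Slc4a4 on the higher side and of Slc12a2, Slc13a5, Slc24a4 and Slc26a6 on the lower side. Each of these 5 genes was past 2-fold as deposited and in all 10 other settings of scaling, floor and probe set choice. Slc24a4 and Slc26a6 have 1 probe set each, so the settings of probe set choice could not move them. All settings process the same 2 arrays again and hold no replicate. No carrier past 2-fold changed sign in any of them. Slc40a1 fell short only after scaling to the spike-ins, at 0.96. Under that scaling the median of all genes moved from 0.08 to -0.20, and the differences of Slc4a8, Slc9a2 and Slc41a2 were 0.91, 1.25 and 1.01.

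**Figure D5:**
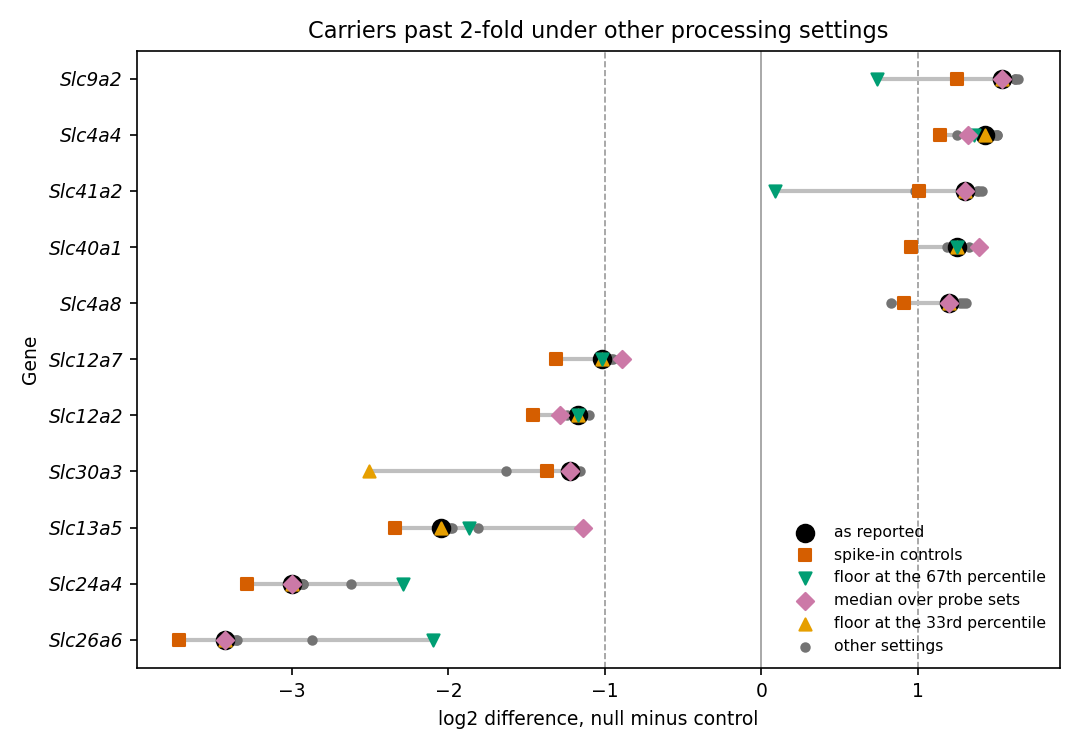
Log2 difference, null minus control (x axis), of the 11 ion carriers past 2-fold (y axis) as reported (black circles) and under other processing settings (coloured and small grey symbols), with grey lines over the whole range. Slc26a6 ranges from -3.72 to -2.10 and Slc24a4 from -3.29 to -2.29, while Slc41a2 reaches 0.09. The values -2.10, -2.29 and 0.09 come from the floor at the 67th percentile and are bounds.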

How the data were processed

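RNA of 2 samples was hybridised to 1 Affymetrix array each, and with so few arrays precision is low. The deposited values are MAS5 signal intensities on a linear scale, which the authors made, per the submitters' processing notes, in Affymetrix Expression Console (version 1), and the genome build is not given in the sources used here. The mean signal after trimming 2% at each end was 150.001 on both arrays, and values were used as deposited. Of 45101 probe sets, 64 controls were set aside, 34958 had 1 gene symbol in the platform annotation, 932 had several and 9160 were not listed. All 81 carriers matched RefSeq symbols. Signals below 21.1 were set to that floor, and a gene was compared if its probe set of highest mean log2 value reached the floor on at least 1 array. A difference against a signal at the floor is a bound. Named genes were the carriers past 2-fold, in each family the carrier of highest mean log2 signal and that of largest difference, up to 4 genes of each partner list with the largest differences measured on both arrays, and Msx1 and Msx2. Further carriers and partners are named to account for the families, chosen with their values known. The members and lists were chosen with earlier results of these data known. No test was run, as each group has 1 array. Other scalings, floors, thresholds and probe set choices were tried. Promoters came from the RefSeq table of build GRCm38.p6, which held 64 of the 81 carriers. The code was tested on simulated data and ran in Python 3.11.15 with pandas 2.3.3, numpy 2.4.6, statsmodels 0.14.6 and matplotlib 3.10.9.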

Additional observations from a re-analysis of the deposited data

How the results depend on the processing

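The count of carriers at least 2-fold higher was 5 of 44 as reported. Among all genes compared it was 902 of 11662. With the arrays scaled to spike-in controls it was 3, against 572 of 11658 genes. A pseudocount of 16 in place of the floor gave 3, against 769 of 11662 genes. At a 3-fold threshold it was 0, against 346 of 11662 genes. With the floor at the 67th percentile it was 2 of 32 carriers compared, against 495 of 9038 genes. With the floor at the 33rd percentile it was 7 of 65, against 1341 of 14652 genes. Slc26a7 (1.09) and Slc9a9 (1.74) were then added, both as bounds. The count at least 2-fold lower was 6 as reported, against 554 of 11662 genes. It was 3 at a 3-fold threshold, against 176 of 11662 genes, and otherwise stayed within 1.5 times. The median difference of the carriers, 0.05 as reported, was -0.22 with spike-in controls, where the median of all genes was -0.20, and the mean was -0.09. No value of a named carrier past 2-fold changed sign in the 10 other settings, and the direction of 12 of the 44 carriers compared changed under at least 1 scaling, 8 of them only with spike-in controls. Signals near a floor limit the size of the differences of Slc26a6, Slc24a4, Slc9a2, Slc30a3, Slc4a8 and Slc41a2. With the floor at the 67th percentile, a signal of 72.7, Slc26a6 (-2.10) and Slc24a4 (-2.29) are bounds and cannot be ranked. As reported, 37 carriers below the floor on both arrays could not be compared. No paired analysis was possible because each genotype has 1 array, so leaving out a replicate could not be done either.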
